A study of Mus musculus with 4 samples.

Results

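Gamma delta (γδ) T cells of the aged mouse kidney were taken as single-cell barcodes with transcripts of the T cell receptor delta constant gene Trdc and of the CD3 complex. They carried none of the coreceptor genes Cd4 and Cd8b1, while Cd8a was not limited. A barcode was counted when it had at least 500 unique molecular identifiers (UMIs, 1 per captured RNA molecule), at least 300 detected genes and at most 50% mitochondrial UMIs. It also needed at least 2 UMIs of Cd3d, Cd3e and Cd3g together and at least 2 of Trdc, with 0 UMIs of Cd4, Cd8b1, Foxp3 and Cd79a. At most 2 UMIs of Mki67 plus Top2a, 9 of the C1q genes and 3 of Lrp2 plus Slc34a1 were allowed, which leaves out cycling cells and most barcodes with macrophage or proximal tubule RNA. The rule found 246 γδ T cells among 3627 CD3-positive T cells and 50605 kept barcodes. All statements on the genes of this rule are descriptions, because those genes chose the cells.

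The kidneys came from male C57BL/6 mice that were 19 months old and received BPTES, an inhibitor of glutamine breakdown, or its vehicle DMSO for 1 month. Each treatment had 2 libraries, called BPTES 1, BPTES 2, DMSO 1 and DMSO 2, and all 4 came from aged mice, so no young or untreated kidney was compared. Kidneys were digested with liberase for 1 h, sorted by CD45, the common surface protein of blood-derived cells, and mixed as 20000 negative plus 9000 positive cells per 3' library, so a share of all barcodes reflects that mixing. The labels do not say that the 2 libraries of a treatment are separate mice, so p-values measure only the spread between these libraries.

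The 4 libraries held 249881074 to 297947661 UMIs, and 11686 to 13130 barcodes per library passed the limits. Of all barcodes, 30.9% to 34.2% were over the mitochondrial limit. Pairs of libraries shared 36 to 54 kept barcode sequences, and whether these are shared cells was not tested. The γδ T cells had median totals of 15133, 12498, 14742 and 14476 UMIs in BPTES 1, BPTES 2, DMSO 1 and DMSO 2, an order kept for every list of 4 values. Their sums were 675397, 881339, 1209955 and 763172 UMIs. BPTES 2 stood apart in its γδ T cells, as described with the subsets.

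γδ T cells carry an antigen receptor made of a gamma and a delta chain in place of the alpha and beta chains of CD4 and CD8 T cells. Many leave the thymus around birth already committed to a cytokine, settle in barrier and other tissues and renew there. One branch makes interleukin 17 and answers to interleukin 23 and interleukin 1 without antigen, and the other makes interferon gamma under T-bet (Tbx21) and shares surface receptors with NK cells. The V segments that a γδ T cell has rearranged mark the wave in which it arose, and the pair Tcrg-V6 with Trdv4 belongs to an early wave of interleukin 17 producers.

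Because the V segment tells these waves apart, the 3' ends of 5 V segments are shown, the last 60 coding bases in mm10 with the codon of the conserved cysteine before the junction in capitals. Each lies in exon 2 of 2 of its gene. Tcrg-V6 ended at chr13:19190870-19190929, plus strand, and Trdv4 at chr14:54075456-54075515, plus strand. The Tcrg-V1 stretch was chr13:19340395-19340454, plus strand, and that of Trgv2 was chr13:19336573-19336632, minus strand. The Trdv5 stretch was chr14:54148662-54148721, minus strand.
Tcrg-V6: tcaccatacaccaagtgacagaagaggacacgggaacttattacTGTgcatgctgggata
Trdv4: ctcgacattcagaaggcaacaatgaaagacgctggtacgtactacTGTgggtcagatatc
Trdv5: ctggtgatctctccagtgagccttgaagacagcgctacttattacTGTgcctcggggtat
Tcrg-V1: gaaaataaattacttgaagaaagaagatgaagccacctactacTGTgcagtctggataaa
Trgv2: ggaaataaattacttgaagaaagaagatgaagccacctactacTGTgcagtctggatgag
Tcrg-V1 and Trgv2 were identical at 57 of these 60 bases (95%), and Tcrg-V6 and Trdv4 at 12. Of the 315 windows of 60 bases in Tcrg-V1, 15 (4.76%) recurred in Trgv2, so some reads can be assigned to either gene or to neither, and both values are uncertain. The same holds for the constant genes Tcrg-C1, Tcrg-C2 and Tcrg-C3: of the 865 windows of 60 bases in Tcrg-C1, 103 recurred in Tcrg-C2 and 112 in Tcrg-C3, and 0 recurred in Tcrg-C4.

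The γδ T cells numbered 45, 67, 83 and 51. They made up 5.33% of CD3-positive T cells in BPTES 1 (exact Clopper-Pearson 95% interval 3.92% to 7.07%), 6.98% in BPTES 2 (5.45% to 8.78%), 8.77% in DMSO 1 (7.05% to 10.8%) and 5.82% in DMSO 2 (4.36% to 7.58%). These intervals cover counting error only. The libraries overlapped: the BPTES mean was 6.16% ± 1.16 (SD, n = 2) and the DMSO mean 7.29% ± 2.09 (SD, n = 2) (exact two-sided permutation test, p = 0.667, with 0.33 the smallest value that 2 against 2 libraries allow). Without DMSO 1 the difference changed sign, from -1.14 to 0.340 percentage points. Of all kept barcodes they were 0.343%, 0.573%, 0.632% and 0.402%. For comparison, the gate for conventional CD4 T cells (Cd4, with no Cd8a, Cd8b1 or Foxp3) held 205, 243, 258 and 226 cells and the gate for CD8 T cells (Cd8b1, with no Cd4 or Foxp3) 285, 340, 328 and 368, all with 0 Trdc UMIs.

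Few cells lay near the limit on Trdc. Among T cells that met every other condition, 244, 262, 199 and 119 had 0 Trdc UMIs, 6, 0, 3 and 2 had 1, and 1, 2, 0 and 1 had exactly 2. At least 4 UMIs were present in 43, 62, 83 and 49 cells. Trdc was not unique to T cells. In a gate of NK cells without CD3 UMIs, at least 1 Trdc UMI was found in 8.60%, 19.8%, 15.7% and 16.7% of cells, against 0% to 0.741% of B cells. The 2 or more UMIs that the rule needs were found in 2.15%, 11.5%, 4.29% and 2.78% of NK cells, highest in BPTES 2. In B cells that share was 0% in each library.

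The γδ T cells fell into 2 ranges of expression that did not touch. The cut was set after the cells had been seen: at least 5 UMIs of 8 type 17 genes (among them Il17a, Il17f, Il23r, Blk, Sox13, Cd163l1 and 5830411N06Rik), and for the rest at least 5 UMIs of 8 type 1 genes (Tbx21, Ifng, Eomes, Nkg7, Ccl5, Klrd1, Xcl1 and Klrc1). The type 17 range held 191 cells with 11 to 356 type 17 UMIs (median 64), and the same cells were chosen when Il17a and Il17f were not counted. The type 1 range held 55 cells, each with 0 type 17 UMIs and with 13 to 433 type 1 UMIs (median 98). No cell was left over. Of the 191 type 17 cells, 116 had 0 type 1 UMIs and 11 had 5 or more.

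**Figure D1:**
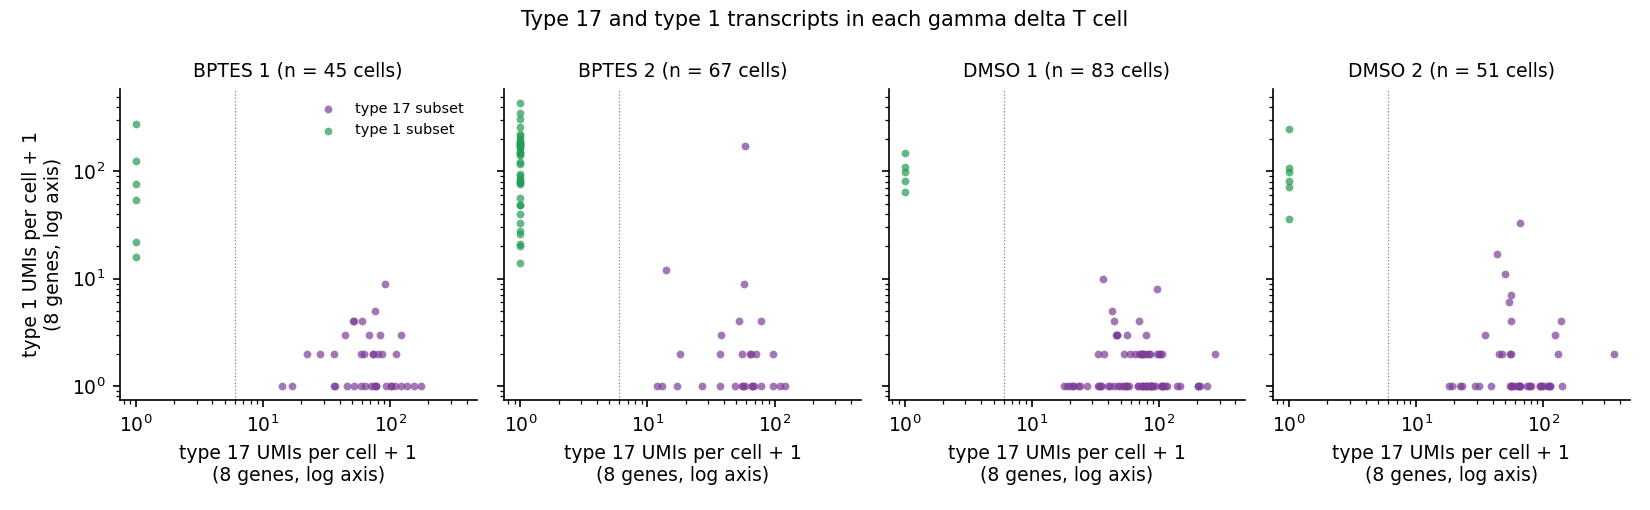
Each point is a γδ T cell in 1 of the 4 libraries, with its UMIs of 8 type 17 genes plus 1 on the x axis and of 8 type 1 genes plus 1 on the y axis, both log axes. The dotted line is the limit of 5 UMIs, purple marks the 191 type 17 cells and green the 55 type 1 cells, of which 38 lie in BPTES 2.

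The libraries differed in their mixture of the 2 ranges. Type 17 cells numbered 39, 29, 78 and 45, and type 1 cells 6, 38, 5 and 6, so that 38 of the 55 type 1 cells came from BPTES 2. Type 17 cells were 4.62%, 3.02%, 8.25% and 5.13% of T cells, with means of 3.82% ± 1.13 under BPTES and 6.69% ± 2.20 under DMSO (SD, n = 2 each). The groups did not overlap, and the exact permutation test gave its smallest possible value (p = 0.33), although the lowest DMSO library, at 5.13%, stood just above the highest BPTES library, at 4.62%. The difference in type 17 cells was -2.87 percentage points, and -1.31 without DMSO 1 and -4.42 without DMSO 2. Type 1 cells were 0.711%, 3.96%, 0.529% and 0.684% of T cells, also with p = 0.33 in the exact permutation test. With BPTES 2 left out, the difference in type 1 cells was 0.105 percentage points in place of 1.73, so it rested on that library. Cells without a UMI of the NK and ILC2 markers Ncr1, Klrb1c, Il1rl1 and Eomes numbered 1, 14, 0 and 2 in the type 1 range, and with the others left out the difference was 0.674 percentage points (p = 0.667, exact permutation test). Eomes is one of the 8 genes that set the range. The difference in all γδ T cells became -2.20 points in place of -1.14 under that choice. Cells of the type 17 range had a median of 24 Trdc UMIs and 33 CD3 UMIs, and those of the type 1 range 9 and 17, at median totals of 14421 to 15208 and 10925 to 12835 UMIs.

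**Figure D2:**
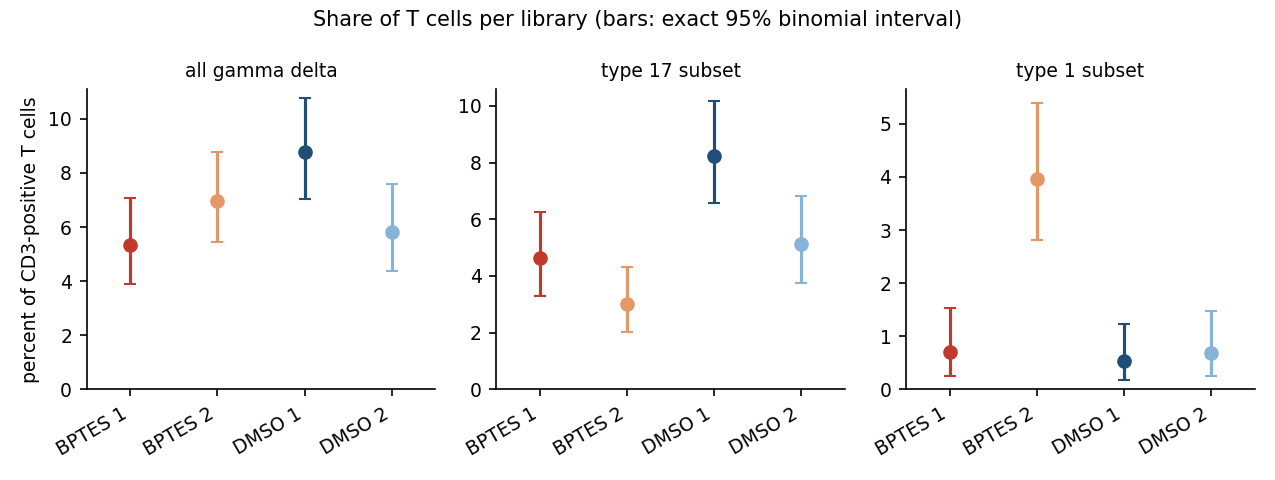
Points give the percent of CD3-positive T cells in each library for all γδ T cells, the type 17 range and the type 1 range, with exact 95% binomial intervals. The type 1 share of 3.96% in BPTES 2 lies above the other 3 libraries, at 0.529% to 0.711%.

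Thinning every cell to 2000 UMIs, which left out no γδ T cell, gave nearly the same picture for the type 17 genes. A type 17 UMI was then found in 86.7%, 43.3%, 92.8% and 86.3% of γδ T cells (86.7%, 43.3%, 94.0% and 88.2% before thinning), with p = 0.667 in the exact permutation test. A type 1 UMI was found in 24.4%, 64.2%, 16.9% and 23.5% after thinning and in 55.6%, 76.1%, 39.8% and 41.2% before (p = 0.33, exact permutation test). BPTES 2 was the lowest library for type 17 transcripts and the highest for type 1 transcripts in each of these series. In all, 11 shares were tested between treatments, among them those of CD4 and CD8 T cells and of the 2 ranges within γδ T cells, and the adjusted p of the exact permutation test was 0.524 for the 7 with p = 0.33 and 0.667 for the other 4.

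The receptor genes separated the 2 ranges too, and the subset cut had not used them. Tcrg-V6 was detected in 71.8%, 69%, 74.4% and 71.1% of type 17 cells, and Trdv4 in 82.1%, 79.3%, 84.6% and 84.4%. These shares differed little between the libraries, and either gene was found in 79.3% to 87.2% of cells. Both were found together in 26 of 39, 20 of 29, 58 of 78 and 32 of 45 type 17 cells. In the type 1 range Tcrg-V6 was found in 1 cell, in DMSO 1, and Trdv4 in 0%, 18.4%, 60% and 16.7%, where all but BPTES 2 have 5 or 6 cells. After thinning to 2000 UMIs the type 17 shares were 25.6%, 24.1%, 20.5% and 17.8% for Tcrg-V6 and 48.7%, 41.4%, 60.3% and 46.7% for Trdv4, against 0% and 0% to 0.588% in B cells, which should lack both and had median totals of 11788 to 13902 UMIs. A 3' library reads the end of a transcript and V segments lie near its start, so a cell without a UMI may still use the segment.

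V segments other than Tcrg-V6 and Trdv4 were detected in both ranges. Trgv2, which cannot be fully told from Tcrg-V1, was found in 83.3%, 84.2%, 100% and 66.7% of type 1 cells and in 56.4%, 51.7%, 62.8% and 57.8% of type 17 cells. Tcrg-V1 was found in 83.3%, 23.7%, 40% and 50% and 20.5%, 31%, 23.1% and 15.6%. Trdv5 was detected in 31.6% of the 38 type 1 cells of BPTES 2 and in none of the other 17, while 2.22% to 5.13% of type 17 cells had it. CD8 T cells had Trgv2 UMIs in 15.3% to 36.8% of cells, and NK cells had Trdv4 UMIs in 31.2% to 38.9%, so a single V segment did not define a γδ T cell in these data.

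The constant genes gave a further check of the label, with Tcrg-C1 given for both ranges and Trac and Trbc2 for type 17 cells only. No Trac or Trbc2 share is stated for type 1 cells, so these genes are not used here to check their label. Tcrg-C1, the constant gene that joins Tcrg-V6, was found in 100%, 96.6%, 97.4% and 100% of type 17 cells and 50%, 86.8%, 60% and 66.7% of type 1 cells, against 3.88% to 6.64% of CD4 and 4.62% to 11.6% of CD8 T cells. The alpha constant gene Trac was found in 33.3%, 34.5%, 30.8% and 53.3% of type 17 cells, against 94.1% to 98.2% and 95.7% to 97.2% in CD4 and CD8 T cells and 0.461% to 2.96% in B cells. Thinned, these Trac shares were 15.4%, 17.2%, 6.41% and 4.44% in type 17 cells, 60.3% to 69.4% in CD4 and 54.5% to 67.9% in CD8 T cells. The beta constant gene Trbc2 was present in 96.6% to 100% of type 17 cells and in 55.6% to 71.8% of NK cells, against 0.42% to 5.85% of B cells, at median totals of 11540 to 13500.5 UMIs in NK and 11788 to 13902 in B cells. Thinned, these Trbc2 shares were 47.4% to 51.7%, 32.9% to 41.7% and 0% to 1.18%.

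**Figure D3:**
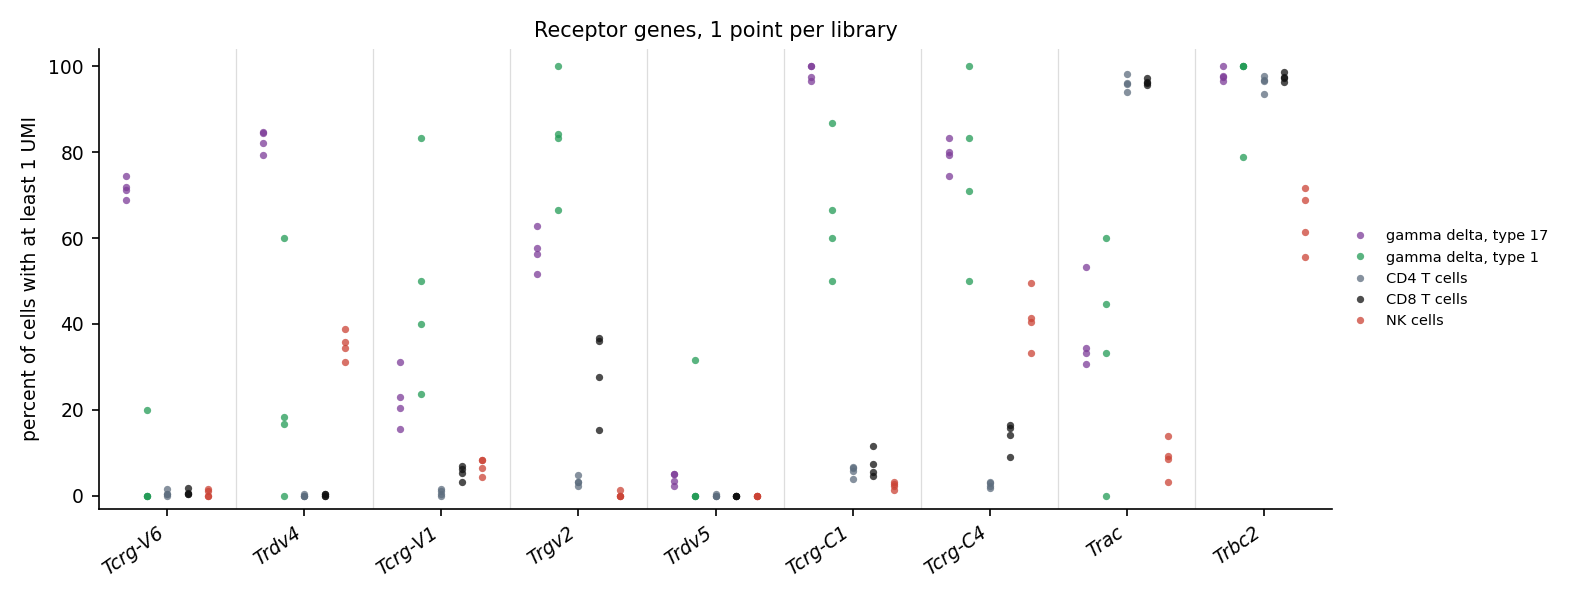
Percent of cells with at least 1 UMI (y axis, not thinned) of 9 receptor genes (x axis) in γδ T cells of both ranges, CD4, CD8 and NK cells, with 1 point per library. Tcrg-V6 lies at 69.0% to 74.4% in type 17 cells, and Trac at 30.8% to 53.3%, below CD4 and CD8 T cells at 94.1% to 98.2%.

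For the comparison with CD4 and CD8 T cells, UMIs were summed per library and cell gate, and the 12 sums were fitted together with library as a block, without the 16 genes that the gates use (edgeR quasi-likelihood test, Benjamini-Hochberg adjustment, threshold 0.05). Values are CPM, the UMIs of a gene scaled to the total UMIs of its sum, and differences are log2 fold changes of γδ over the other cells, given against CD4 and then CD8 T cells where there are 2. Of 11061 genes, 2233 (20.2%) differed between γδ and CD4 T cells, 1106 higher (10.0%) and 1127 lower (10.2%). Against CD8 T cells 2318 (21.0%) differed, 1188 higher (10.7%) and 1130 lower (10.2%). In both comparisons together 796 genes (7.20%) were higher and 678 (6.13%) were lower. The 4 γδ values lay above all 8 others for 833 genes (7.53%) and below all 8 for 516 (4.67%). The counts were 1405 and 1518 without BPTES 1, 1266 and 1278 without DMSO 1, and 1414 and 1345 without DMSO 2 (against CD4 and against CD8 T cells), and 2492 and 2609 without BPTES 2.

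Receptor genes led the difference, which the choice of cells by Trdc partly fixes. All 11 tested genes of the γδ receptor list were higher in both comparisons (median 4.99 against CD4 and 4.69 against CD8 T cells, beside -0.01 and -0.02 for all genes). The list has 34 symbols, of which 23 were in the files. A gene could pass the low-count filter through the γδ sums alone, so the count of 11 was partly fixed by the filter too. All 6 tested genes of the αβ receptor list were lower. Among them Trbc1 was -0.65 and -0.75. Against CD4 T cells it missed the threshold with Scrublet doublets removed (adjusted p = 0.070) or without cells with markers of other types (0.067). It missed it also with each cell thinned to 2000 UMIs (0.119), with no low-count filter (0.090) and without BPTES 2, DMSO 1 or DMSO 2. Against CD8 T cells Trbc1 missed it without BPTES 2 or DMSO 2. Trdv4 stood at 358, 221, 531 and 425 CPM in γδ T cells and at 0 to 0.440 in the CD4 and CD8 sums. Tcrg-V6 stood at 123, 54.5, 131 and 106, lowest in BPTES 2, and at most 1.62 in the other sums. Tcrg-C4 was higher by 4.99 (SE 0.18, adjusted p = 1.5e-08) against CD4 and 2.74 (SE 0.14, adjusted p = 3.6e-07) against CD8 T cells. The uncertain gene Tcrg-C2 was 4.52 and 1.15 higher, with CD8 values of 145, 41.4, 125 and 72.6 not far below the γδ values of 172, 193, 221 and 232, and the call against CD8 T cells missed the threshold without DMSO 1 (adjusted p = 0.101) or DMSO 2 (adjusted p = 0.151). With every library kept, it was also missed with Scrublet doublets removed (adjusted p = 0.058), without cells with markers of other types (adjusted p = 0.054) or with no low-count filter (adjusted p = 0.099). Trac stood at 44.4, 66.9, 55.4 and 77.3 in γδ T cells, below the lowest CD8 value of 419, a difference of -3.40 (SE 0.10, adjusted p = 8.9e-09) against CD4 and -3.02 (SE 0.10, adjusted p = 1.1e-08) against CD8 T cells.

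The genes that carry the signal of the receptor differed strongly as well. Of 17 tested genes of receptor signalling, 2 were higher and 9 lower than in CD4 T cells. Against CD8 T cells 4 were higher and 9 lower (medians -0.58 and -0.49, beside 20.2% and 21.0% of all genes called). Lck, the kinase that starts αβ receptor signalling with the coreceptors, stood at 111, 267, 28.1 and 73.4 CPM against 487 to 583 in CD4 and 519 to 543 in CD8 T cells. It was lower, at -2.38 (SE 0.48, adjusted p = 0.014) against CD4 T cells, and BPTES 2 was its highest γδ library. Blk, a kinase of the same family best known from B cells, went the other way at 579, 248, 812 and 589.6 against 0 to 1.9 in CD4 T cells, a difference of 9.15 (SE 0.57, adjusted p = 4.5e-05). Themis, which tunes receptor signals in developing αβ T cells, stood at 81.4, 388, 36.4 and 65.5 against 895 to 1087 in CD4 T cells (-3.18, SE 0.57, adjusted p = 0.009). The costimulatory receptor Cd28 was lower, at -3.92 (SE 0.26, adjusted p = 2.5e-05), and the inhibitory coreceptor Cd5, at -3.72 (SE 0.14, adjusted p = 1.5e-08). Zap70, the kinase downstream of Lck, was higher in γδ T cells, by 0.50 (SE 0.13, adjusted p = 0.019) against CD4 and 0.96 (SE 0.13, adjusted p = 0.00036) against CD8 T cells. Against CD4 T cells Lck missed the threshold without BPTES 1 (adjusted p = 0.091) or DMSO 2 (adjusted p = 0.095), Themis without BPTES 1 (adjusted p = 0.072) or DMSO 2 (adjusted p = 0.068) and Zap70 without BPTES 1 (adjusted p = 0.106), DMSO 1 (adjusted p = 0.155) or DMSO 2 (adjusted p = 0.114). Lck missed it also with each cell thinned to 2000 UMIs (adjusted p = 0.063), and Zap70 likewise (adjusted p = 0.078).

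Split by range, the low levels of Lck and Themis lay in the type 17 cells. Lck stood at 20.2, 28.2, 11.4 and 4.34 CPM in type 17 cells and at 764, 489, 323 and 738 in type 1 cells, and Themis at 18.6, 51.7, 7.86 and 7.23 and 534, 702, 539 and 626. The 2 sets of values did not overlap for either gene, and no test was made because 3 libraries had under 10 type 1 cells. The Lck values of type 1 cells spanned those of CD4 and CD8 T cells. Lck was detected in 5.13%, 10.3%, 11.5% and 6.67% of type 17 cells and in 10.1%, 17.5%, 11.7% and 21.5% of B cells, so its level in type 17 cells was not above this background. Thinned to 2000 UMIs, Lck was found in 0%, 3.45%, 2.56% and 0% of type 17, 61.2% to 67.2% of CD4 and 63.5% to 69% of CD8 T cells. With the type 17 cells alone against CD4 T cells, where 26.7% of 11051 genes differed (12.3% higher, 14.5% lower), 11 of the 17 signalling genes were lower and 4 higher, and against CD8 T cells (27.7%; 13.1% higher, 14.6% lower) 12 were lower and 5 higher.

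The interleukin 17 program was higher in γδ T cells almost throughout. Of 25 tested among the 28 genes of the type 17 list, 22 were higher than in CD4 and 24 than in CD8 T cells. None was lower (medians 3.24 and 3.74, beside 10.0% and 10.7% of all genes higher). Among its transcription factors, Sox13, known from interleukin 17 producing γδ T cells, stood at 159.9, 101, 156 and 151 CPM. The largest value in any other sum was 2.14, and the difference from CD4 T cells was 6.64 (SE 0.23, adjusted p = 1.5e-08). Zbtb16, which encodes the innate-like T cell factor PLZF, was higher by 3.31 (SE 0.36, adjusted p = 0.00059) and 3.74 (SE 0.36, adjusted p = 0.00032). Maf was higher than in CD8 T cells by 2.67 (SE 0.20, adjusted p = 4e-05), and its difference from CD4 T cells was 0.48 (SE 0.19, adjusted p = 0.125), past no threshold. In Sox13, Zbtb16 and Maf BPTES 2 was the lowest γδ library.

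Receptors for the cytokines that drive this program were high in each library. Il23r, a subunit of the interleukin 23 receptor, stood at 1002, 465, 799 and 769 CPM against 27 to 51.2 in CD4 and 10.6 to 44.2 in CD8 T cells (4.25, SE 0.48, adjusted p = 0.0011, and 4.69, SE 0.49, adjusted p = 0.00074). The interleukin 1 receptor gene Il1r1 stood at 742, 413, 708 and 653 against 19 to 40.2 and 21.3 to 34.1 (4.29, SE 0.22, adjusted p = 4.7e-06, and 4.33, SE 0.22, adjusted p = 5.6e-06). Smaller differences were seen for Il18r1, the interleukin 18 receptor (1.07 and 1.53), Il7r (0.88 and 1.09) and Il2ra (2.64 and 3.29), all past the threshold and without overlap. Il7r against CD4 T cells missed the threshold without DMSO 1 (adjusted p = 0.069). Cd163l1, a scavenger receptor of the SCART family found on such γδ T cells, stood at 1834, 857, 1610 and 1268 against at most 9.03 in the other sums. Ramp1, part of the receptor for the neuropeptide CGRP, was higher by 3.18 (SE 0.31, adjusted p = 0.00036) and 3.49 (SE 0.31, adjusted p = 0.00024).

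The cytokine itself varied more between libraries than Il23r and Il1r1. Il17a stood at 410.1, 9.08, 1165 and 1255 CPM in γδ T cells, 76.2, 13.2, 85.7 and 52.2 in CD4 and 8.85, 3.08, 6.02 and 7.12 in CD8 T cells. Its difference was 3.25 (SE 0.72, adjusted p = 0.023) against CD4 and 6.45 (SE 0.87, adjusted p = 0.0028) against CD8 T cells. The call against CD4 T cells missed the threshold without BPTES 1 (adjusted p = 0.108), DMSO 1 (adjusted p = 0.14) or DMSO 2 (adjusted p = 0.124). The DMSO libraries and BPTES 1 were high, while BPTES 2 lay below all 4 CD4 sums. No type 1 cell had an Il17a UMI.

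Because genes of the type 17 list were high together, their promoters are described. The letters AGGTCA, a half-site of many nuclear receptors, were searched on both strands (TGACCT on the other) in the 250 bases before each annotated start in RefSeq's GRCm38.p6 table. They occurred in 7 of 32 promoters (21.9%) of the 22 list genes found there, in 2 of 21 promoters (9.52%) of 18 type 1 list genes, and in 4607 of 32851 promoters (14%) in all. The promoters of Il17a (chr1:20730655-20730904, plus strand), Il17f (chr1:20784271-20784520, minus strand) and Il23r (chr6:67491856-67492105, minus strand), the cytokines and a receptor named above, are shown 5′ to 3′ toward the start with these letters in capitals.
Il17a: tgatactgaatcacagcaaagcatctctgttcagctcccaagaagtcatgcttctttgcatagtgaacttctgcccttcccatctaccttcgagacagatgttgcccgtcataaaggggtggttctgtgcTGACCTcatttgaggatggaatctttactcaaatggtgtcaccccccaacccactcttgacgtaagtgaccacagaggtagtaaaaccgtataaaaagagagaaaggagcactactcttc
Il17f: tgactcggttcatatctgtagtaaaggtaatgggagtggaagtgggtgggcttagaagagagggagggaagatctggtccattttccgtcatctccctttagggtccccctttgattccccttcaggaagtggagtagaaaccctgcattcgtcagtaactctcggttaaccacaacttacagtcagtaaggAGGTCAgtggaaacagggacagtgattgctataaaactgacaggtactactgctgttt
Il23r: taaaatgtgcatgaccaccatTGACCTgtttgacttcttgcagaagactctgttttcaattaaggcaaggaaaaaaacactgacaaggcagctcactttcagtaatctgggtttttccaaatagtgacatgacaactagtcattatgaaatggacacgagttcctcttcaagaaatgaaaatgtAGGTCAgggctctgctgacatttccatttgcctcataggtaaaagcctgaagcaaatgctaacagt
Il17a and Il17f each had 1 match and Il23r had 2. A match describes the letters only, and binding was not measured.

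Of 24 tested genes of the program for interferon gamma and killing, 1 was higher and 5 lower than in CD4 T cells, and none was higher and 13 were lower than in CD8 T cells (medians -0.14 and -1.86, beside 20.2% and 21.0% of all genes called). Ifng stood at 42.9, 101, 7.44 and 5.24 CPM, below every CD4 and CD8 value (-2.49, SE 0.67, adjusted p = 0.044, and -2.49, SE 0.68, adjusted p = 0.045). Eomes was lower, at -2.09 (SE 0.49, adjusted p = 0.016) and -4.30 (SE 0.41, adjusted p = 0.00011). The calls of Ifng missed the threshold without BPTES 1 (adjusted p = 0.169), DMSO 1 (adjusted p = 0.152) or DMSO 2 (adjusted p = 0.13) against CD4 T cells and without BPTES 1 (adjusted p = 0.157), DMSO 1 (adjusted p = 0.176) or DMSO 2 (adjusted p = 0.166) against CD8 T cells. With every library kept, Ifng missed it without cells with markers of other types (adjusted p = 0.053) or with no low-count filter (adjusted p = 0.085) against CD4 T cells, and without cells with markers of other types (adjusted p = 0.055) or with no low-count filter (adjusted p = 0.082) against CD8 T cells. Eomes against CD4 T cells missed it without BPTES 1 (adjusted p = 0.108) or DMSO 2 (adjusted p = 0.12). For Ccl5, a chemokine of effector T and NK cells, the values were 487, 4441, 233 and 532, and the differences of 0.10 (SE 0.89, adjusted p = 0.964) and -2.49 (SE 0.90, adjusted p = 0.109) missed the threshold. Without BPTES 2 the difference of Ccl5 from CD4 T cells was -1.07. Among type 17 cells alone 14 of the 24 genes were lower than in CD4 and 22 than in CD8 T cells, and Ccl5 was -3.81 against CD4 T cells.

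The type 1 range held these transcripts. Ccl5 stood at 3967, 8301, 4231 and 5442 CPM in type 1 cells, against 4250.4 to 5017 in CD8 T cells and 3147 to 5202 in NK cells. The granule gene Nkg7 stood at 934, 1276, 1154 and 1392 against 919 to 1300.3 in CD8 T cells. Tbx21 stood at 400.4, 294, 431 and 418. These 3 genes were among those that set the range. Granzyme A (Gzma), which was not, stood at 158, 2484, 1508 and 27.8, with BPTES 2 and DMSO 1 high and the other libraries low. Of the NK receptor list, 6 of 17 tested genes were higher than in CD4 T cells and none was lower, while 3 were higher and 1 lower than in CD8 T cells (medians 1.96 and 0.16). Over all genes 20.2% and 21.0% were called, so the count against CD8 T cells is near that share. Klrb1c was higher by 2.18 (SE 0.39, adjusted p = 0.0025) and 1.18 (SE 0.36, adjusted p = 0.04), and it was below both when cells with Ncr1, Klrb1c, Il1rl1 or Eomes UMIs were left out, as that choice fixes. The call of Klrb1c against CD8 T cells missed the threshold without BPTES 1 (adjusted p = 0.114), BPTES 2 (adjusted p = 0.212) or DMSO 2 (adjusted p = 0.078), and its difference was 0.68 without BPTES 2. It missed it also with no library block (adjusted p = 0.059), with no low-count filter (0.061) and at a mitochondrial limit of 25% (0.075).

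Summed markers of NK cells followed the type 1 cells. The 8 NK markers together stood at 215, 1987, 121 and 66.8 CPM in γδ T cells, highest in BPTES 2, and at 4206 to 5559 in NK cells. In the type 17 range they stood at 16.9, 388, 1.75 and 1.45, with Klra4 at 0 in all 4 libraries and Eomes in the first 3. The part of RNA from NK cells in the type 1 range was not tested. Scrublet, a doublet caller, marked 8 of the 191 type 17 cells and 6 of the 55 type 1 cells, and all of these 6 lay in BPTES 2. The 5 type 1 cells with at least 10 UMIs of 20 myeloid genes or of 8 vessel and stroma genes lay in BPTES 2 too. Summed macrophage markers stood at 243, 1886, 308 and 111 CPM in type 1 cells, highest in that library. With the marked cells left out, BPTES 2 held 32 type 1 cells, and the part of other RNA in its type 1 cells was not tested.

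Genes of recirculation and homing were lower in γδ T cells in part. Of 12 tested genes of naive and recirculating T cells none was higher, 7 were lower than in CD4 and 9 than in CD8 T cells. Their medians were -0.92 and -1.15, and 10.2% of all genes were lower in each comparison. Ccr7, the lymph node homing receptor, stood at 1.48, 19.3, 3.31 and 2.62 CPM against 60.8, 49.8, 18.7 and 28.2 in CD4 T cells (-2.61, SE 0.46, adjusted p = 0.0033), with BPTES 2 overlapping the CD4 range. S1pr1, the exit receptor, was lower, at -1.15 (SE 0.22, adjusted p = 0.0046) and -1.16 (SE 0.22, adjusted p = 0.0039). The residency list was mixed, with 4 higher and 3 lower of 14 against CD4 and 3 higher and 3 lower against CD8 T cells. Beside it, 20.2% and 21.0% of all genes were called. Within it Cxcr6 was higher by 1.21 (SE 0.20, adjusted p = 0.0033) and 1.15 (SE 0.20, adjusted p = 0.0039), and Itgae, the integrin CD103, by 2.62 (SE 0.47, adjusted p = 0.0062) against CD4 T cells at values of 25.2, 30.6, 105 and 200.5. Among chemokine receptors Ccr2 and Ccr6 were higher in both comparisons (1.39 and 1.73 for Ccr2, 1.14 and 4.25 for Ccr6) and Cxcr3 was lower (-1.76 and -1.37). Against CD4 T cells Itgae missed the threshold without DMSO 1 (adjusted p = 0.06), Ccr6 without BPTES 1 (adjusted p = 0.055), and Ccr7 with no library block (adjusted p = 0.075) or with each cell thinned to 2000 UMIs (adjusted p = 0.067). Cxcr3 against CD8 T cells missed it without BPTES 1 (adjusted p = 0.08), DMSO 1 (adjusted p = 0.096) or DMSO 2 (adjusted p = 0.097), and with no low-count filter (adjusted p = 0.054).

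Of 13 genes of checkpoints and exhaustion, 1 was higher and 5 lower than in CD4 T cells. Against CD8 T cells 2 were higher and 4 lower, beside 20.2% and 21.0% of all genes called in the 2 comparisons. The inhibitory receptor Pdcd1 was higher in both, by 1.50 (SE 0.21, adjusted p = 0.00099) and 1.23 (SE 0.21, adjusted p = 0.0025), at 164, 90.8, 242 and 239.8 CPM. Tigit, another inhibitory receptor, stood at 2.96, 4.54, 0 and 0 against 40.2 to 61.1 in CD4 T cells (-4.83, SE 0.47, adjusted p = 5.6e-05).

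Interferon response genes were lower in 11 of 16 against CD4 and 10 of 16 against CD8 T cells, with none higher. Their medians were -0.90 and -0.63, and 10.2% of all genes were lower in each comparison. Ifit3 stood at 0, 5.67, 2.48 and 7.86 against 35.1 to 54.1 and 23.8 to 69.7 in CD4 and CD8 T cells, and Isg15 was lower, at -2.07 (SE 0.30, adjusted p = 0.0014) and -1.44 (SE 0.31, adjusted p = 0.01). Against CD8 T cells Isg15 missed the threshold without DMSO 1 (adjusted p = 0.059) or DMSO 2 (adjusted p = 0.067). Some macrophage and dendritic cell markers were lower in γδ T cells too. Of 7 tested macrophage markers 4 were lower than in CD4 and 3 than in CD8 T cells (medians -2.22 and -2.10). Of 7 tested dendritic cell markers 2 and 3 were lower (medians -2.61 and -2.96), and no marker of either list was higher. Beside 10.2% of all genes lower in each comparison, these are counts of few genes. The 8 macrophage markers together stood at 147 to 1036 CPM in γδ, 1615 to 2225 in CD4 and 913 to 2435 in CD8 T cells, with Cd5l at 0 in every γδ library, and the 8 dendritic cell markers at 41.5 to 348, 454 to 790.4 and 308 to 1204. The same limit on C1q genes held for all 3 gates. The part of this RNA in the interferon response genes was not tested. Immediate early and dissociation genes, which digestion can induce, were lower in 14 and 10 of 18, none higher (medians -0.68 and -0.37), such as Egr1 at -1.93 (SE 0.22, adjusted p = 0.00016) and -0.97 (SE 0.22, adjusted p = 0.011). Against CD8 T cells Egr1 missed the threshold without BPTES 1 (adjusted p = 0.058) or DMSO 2 (adjusted p = 0.058), and with each cell thinned to 2000 UMIs (adjusted p = 0.064). Of 11 genes of type 2 immunity, 3 were higher and 4 lower than in CD4 T cells and 5 higher and 1 lower than in CD8 T cells. Of all genes, 20.2% and 21.0% were called in either direction.

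Glutamine genes, the pathway that BPTES inhibits, differed in both directions. Of 16 tested genes, 4 were higher and 4 lower than in CD4 T cells and 3 were higher and 4 lower than in CD8 T cells (medians 0.10 and -0.05). Glud1, which turns glutamate into α-ketoglutarate, was higher by 0.46 (SE 0.09, adjusted p = 0.0029) and 0.28 (SE 0.09, adjusted p = 0.036). The glutamine transporter gene Slc1a5 was higher by 0.65 (SE 0.14, adjusted p = 0.0066) and 0.56 (SE 0.14, adjusted p = 0.014). Against CD8 T cells Glud1 missed the threshold without BPTES 1 (adjusted p = 0.075), DMSO 1 (adjusted p = 0.227) or DMSO 2 (adjusted p = 0.12), and with no low-count filter (adjusted p = 0.138), with no library block (adjusted p = 0.083) or with each cell thinned to 2000 UMIs (adjusted p = 0.053). Slc1a5 missed it without BPTES 1 (adjusted p = 0.064), DMSO 1 (adjusted p = 0.07) or DMSO 2 (adjusted p = 0.062) against CD4 T cells and without BPTES 1 (adjusted p = 0.085), DMSO 1 (adjusted p = 0.13) or DMSO 2 (adjusted p = 0.085) against CD8 T cells. With each cell thinned to 2000 UMIs, Slc1a5 missed it in both (adjusted p = 0.074 and 0.094). Of 10 genes of the amino acid stress response none was higher, 2 were lower than in CD4 and 3 than in CD8 T cells, and Atf4 itself was lower, at -0.62 (SE 0.09, adjusted p = 0.00054) and -0.55 (SE 0.09, adjusted p = 0.0011). None of 5 inhibitors of the cell cycle was called in either comparison. Over all genes 20.2% and 21.0% were called against CD4 and CD8 T cells. The counts of the stress and cell cycle lists therefore say nothing particular about these lists.

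A rule on size named the genes with the largest mean difference from both T cell types, 15 higher and 10 lower, among those past both thresholds, with no overlap and a mean log2 CPM of at least 5. The 15 higher genes were Trdv4, Cd163l1, Blk, Sox13, Abi3bp, Nrxn3, Tcrg-C1, Kcnk1, Clnk, Adam12, Cdh10, Zfp462, Il23r, Ablim3 and Il1r1. Clnk, an adaptor protein related to SLP-76, stood at 1091, 639.9, 990.1 and 753 CPM against 9.51 to 41.5 in CD4 and 18.5 to 23.8 in CD8 T cells. The potassium channel gene Kcnk1 stood at 194, 108, 165 and 159 against at most 6.94. Adam12, a membrane metalloprotease, stood at 686, 229, 648 and 573 against at most 33.1. For Abi3bp the values were 228, 211, 403 and 376, and the largest value in another sum was 23.8. Nrxn3, a neurexin better known from neurons, stood at 366, 55.6, 192 and 60.3, with BPTES 1 highest and BPTES 2 lowest, and at most 16.1 elsewhere.

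The 10 lower genes were Epha3, Tigit, Slamf6, Ttn, St8sia1, Gm8369, Gzmk, Ifi27l2a, Gm20275 and Ifit3. Epha3, an ephrin receptor, had 0 UMIs in every γδ library, against 30.4, 19.8, 39.8 and 40.9 CPM in CD4 and 45.8, 49.3, 70.8 and 51.4 in CD8 T cells. Against a floor of 3 counts over the γδ sums it was at least 39-fold lower than in CD4 and at least 64-fold lower than in CD8 T cells. Slamf6, a receptor of the SLAM family, stood at 0, 4.54, 1.65 and 5.24 against 94.4 to 164 in CD4 T cells. Gzmk, the granzyme of aged and memory-like CD8 T cells, stood at 0, 21.6, 8.26 and 0 against 63 to 111 in CD4 and 159.6 to 242 in CD8 T cells. Its call against CD4 T cells missed the threshold without DMSO 1 (adjusted p = 0.066). Every γδ value was below every CD4 and CD8 value for the 10 genes, as the rule requires.

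T cells with the same cytokine program but no Trdc UMI gave the nearest comparison. There were 100, 76, 82 and 35 T cells that met the rule apart from Trdc, had 0 Trdc UMIs and at least 5 UMIs of the 8 type 17 genes. They were chosen by those genes and are described without a test, at median totals of 16911, 16158.5, 15420.5 and 14783 UMIs. Trac was found in 82%, 90.8%, 91.5% and 85.7% of them, against 33.3%, 34.5%, 30.8% and 53.3% of type 17 γδ T cells. Tcrg-V6 was found in 2%, 1.32%, 1.22% and 5.71% of them and Trdv4 in 2%, 0%, 0% and 2.86%. Their Tcrg-C1 share was 80%, 78.9%, 74.4% and 74.3%, between type 17 γδ and CD4 T cells, so gamma chain RNA was present without Trdc. These shares lay within the range of those in type 1 γδ T cells.

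Il23r, Blk, Sox13 and Cd163l1 were among the genes that chose both kinds of type 17 cell, so only their balance can differ, and the shares near 100% of Il23r in both say nothing on likeness. Of the genes that were not, Il1r1 was found after thinning to 2000 UMIs in 55.6%, 76.3%, 58.5% and 50% of cells without Trdc and 76.9%, 72.4%, 74.4% and 75.6% of type 17 γδ T cells, and Zbtb16 in 63.6%, 53.9%, 56.1% and 67.6% and 48.7%, 51.7%, 43.6% and 55.6%. The values overlapped for both genes. The 2 kinds differed in Sox13, found in 24%, 19.7%, 9.76% and 17.1% of cells without Trdc and 87.2%, 86.2%, 84.6% and 86.7% of type 17 γδ T cells, and in Cd163l1, found in 3%, 2.63%, 3.66% and 14.3% and 92.3%, 86.2%, 89.7% and 84.4%. These values did not overlap. Blk was found in 68%, 60.5%, 54.9% and 54.3% against 89.7%, 96.6%, 94.9% and 95.6%. In the cells without Trdc, Lck was found in 91%, 93.4%, 97.6% and 85.7% and Themis in 57%, 69.7%, 70.7% and 62.9%, far above the 5.13% to 11.5% and 2.22% to 3.45% of type 17 γδ T cells. Thinned to 2000 UMIs, the shares in cells without Trdc and in type 17 γδ T cells were 0% to 5.88% and 17.8% to 33.3% for Sox13, 1.01% to 11.8% and 75.9% to 89.7% for Cd163l1, and 48.5% to 58.5% and 0% to 3.45% for Lck.

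**Figure D4:**
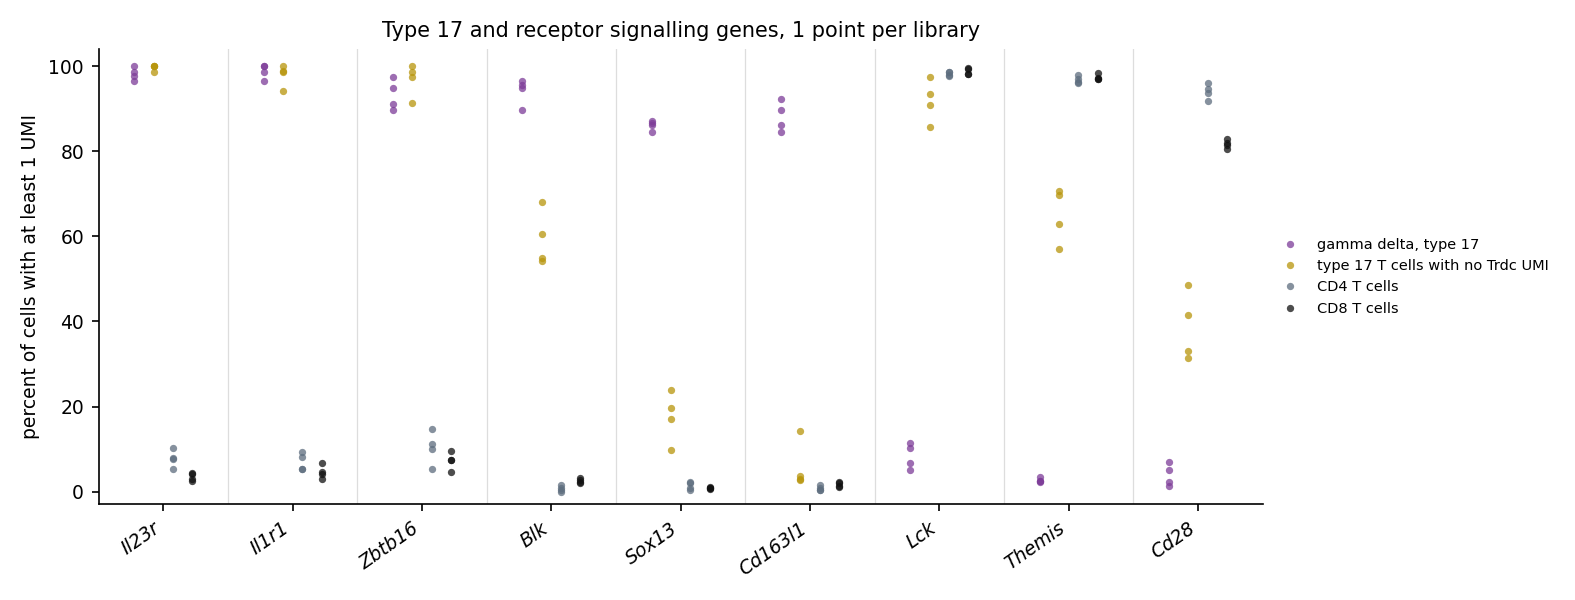
Percent of cells with at least 1 UMI (y axis, not thinned) of 9 genes (x axis) in type 17 γδ T cells, type 17 T cells with no Trdc UMI, CD4 and CD8 T cells, with 1 point per library. Il23r, Blk, Sox13 and Cd163l1 were among the genes that chose both type 17 groups, so the shares near 100% of Il23r follow from that choice. Cd163l1 is at 84.4% to 92.3% in γδ T cells and 2.63% to 14.3% in cells without Trdc.

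Treatment was compared first over all γδ T cells, with 4 sums and no block. Of 8233 genes 4 passed the threshold (0.0486%; 0.0243% higher and 0.0243% lower), and 679 had an unadjusted p under 0.05 (4.41% higher and 3.84% lower). The 2 treatments did not overlap for many more, with 20.1% of genes higher and 20.5% lower under BPTES. DESeq2 called 20. The NK receptor gene Klra8 was higher under BPTES with 48 and 41 UMIs against 0 and 0, at least 37.6-fold against a floor of 3 counts over the DMSO sums (adjusted p = 0.039, edgeR). Klra8 belongs to a family of closely related genes, so its value is uncertain. All 48 UMIs of BPTES 1 came from 1 type 1 cell, and the 41 of BPTES 2 from 7 type 1 cells and 1 type 17 cell. With Trdc at least 3, or without cells with NK or ILC2 markers, Klra8 was too low to be tested. It was found in 2.22% and 11.9% of the BPTES cells and in 16.1% to 25% of NK cells, and the NK marker sum was higher in both BPTES libraries too, most in BPTES 2. Igkc, the kappa light chain constant gene of B cells, stood at 366, 456, 75.2 and 66.8 CPM, higher by 2.52 (SE 0.20, adjusted p = 0.017). Ptgs2, the inducible cyclooxygenase, had 1, 1, 70 and 56 UMIs and was lower, at -5.52 (SE 0.49, adjusted p = 0.017), and 66 of its 70 and 24 of its 56 UMIs under DMSO lay in a few cells with markers of other cell types. Irf4, a transcription factor induced by receptor and cytokine signals, stood at 23.7, 22.7, 143 and 122 and was lower, at -2.52 (SE 0.24, adjusted p = 0.02). The count was 883 without BPTES 1, 158 without BPTES 2, 7 without DMSO 1 and 0 without DMSO 2 (326 with an unadjusted p under 0.05).

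Since BPTES 2 differed in its mixture of ranges, the treatment was also compared within the 191 type 17 cells, a choice made after the data had been seen. On simulated data more of such calls were false than the threshold allows, here and over all γδ T cells. Of 7580 genes 69 passed the threshold (0.910%), 23 higher (0.303%) and 46 lower (0.607%) under BPTES, and 748 had an unadjusted p under 0.05 (4.74% higher and 5.13% lower). Groups that did not overlap were common, at 20.4% of genes higher and 20.5% lower. DESeq2 called 31. All 69 called genes kept their direction wherever they were still tested. The number called was 367 without BPTES 1, 102 without BPTES 2, 15 without DMSO 1 and 13 without DMSO 2, and 64, 51, 6 and 8 of the 69 were among them. Irf4, Igkc and Igha passed in all 8 of the settings that left out a library, left out doublets or cells of doubtful type, or added a block, and 21 of the 69 passed in the 4 settings that kept every library. The 8 settings were chosen with the earlier calls known.

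Il17a varied widely in these cells. It had 277, 8, 1409 and 958 UMIs, or 467, 18.8, 1231 and 1386 CPM, in BPTES 1, BPTES 2, DMSO 1 and DMSO 2. Both BPTES values lay below both DMSO values, but the difference of -2.35 (SE 1.40, adjusted p = 0.754) did not pass the test. In single cells, an Il17a UMI was found in 11 of 39, 5 of 29, 45 of 78 and 27 of 45 cells (28.2%, 17.2%, 57.7% and 60%). After thinning to 2000 UMIs it was found in 17.9%, 0%, 46.2% and 48.9%, with p = 0.33 in the exact permutation test, the smallest value possible, against 0% of B cells. At that thinned depth, 0 of 29 cells in BPTES 2 allows up to 10.3% of cells with a UMI, which does not limit the share before thinning. Single cells carried much of the total, with at most 63, 3, 211 and 321 UMIs in 1 cell. T cells with the type 17 program and no Trdc UMI had Il17a at 18.4, 17.2, 145 and 456 CPM, lower in both BPTES libraries. Il17a was among the 8 genes that chose these cells, and the choice was not repeated without it, so these values are no separate evidence. CD4 T cells had Il17a at 76.2, 13.2, 85.7 and 52.2.

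Il17f, the sister cytokine gene, passed the test in these cells. It had 0, 0, 20 and 23 UMIs, all from 4 cells of DMSO 1 and 3 of DMSO 2, and was at least 7.95-fold lower under BPTES against a floor of 3 counts over the BPTES sums (adjusted p = 0.027, edgeR). Ramp1 stood at 543, 444, 804 and 778 CPM and was lower, at -0.68 (SE 0.14, adjusted p = 0.029). Neither gene passed without DMSO 1 or without DMSO 2, or by DESeq2. These were the 2 called genes of the 25 tested of the type 17 list (median -0.04, beside 0.00 for all genes). The rest of the program did not pass: Sox13 differed by 0.22 (SE 0.18, adjusted p = 0.762), Il23r by 0.31 (SE 0.12, adjusted p = 0.37) and Cd163l1 by 0.31 (SE 0.12, adjusted p = 0.373).

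Irf4 and 7 other genes described here were lower under BPTES. They come from no single list, and Nfkbia, Nfkb1, Relb, Traf1 and Rbpj were chosen from the 69 called genes after their values were seen, outside the rule for named genes. Irf4 stood at 27, 23.5, 151 and 135 CPM and was lower, at -2.49 (SE 0.27, adjusted p = 0.00017). Nfkbia, the feedback inhibitor of NF-κB, stood at 393, 268, 664 and 662 (-0.998, SE 0.17, adjusted p = 0.012), and Nfkb1, a subunit, at 433, 359.8, 635 and 730.5 (-0.78, SE 0.15, adjusted p = 0.02). Relb and Traf1, of the same pathway, were lower, at -1.17 (SE 0.24, adjusted p = 0.037) and -1.07 (SE 0.23, adjusted p = 0.037). Rbpj, the transcription factor of Notch signalling, stood at 157, 125, 359.8 and 451 (-1.51, SE 0.19, adjusted p = 0.00072), and the inhibitory receptor Havcr2 at 5.06, 4.7, 55 and 46.3 (-3.34, SE 0.49, adjusted p = 0.0024). Rgs16, a brake on chemokine receptor signals, had 0, 0, 63 and 23 UMIs, at least 15.9-fold lower against the floor (adjusted p = 0.0013, edgeR). Each of the 8 genes had both BPTES libraries below both DMSO libraries, as had 20.5% of the genes tested. Without DMSO 1 only Irf4 and Rbpj of these 8 genes passed, and without DMSO 2 only Irf4 and Rgs16.

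Several of the largest decreases came from few cells that also held markers of other cell types. Of the type 17 cells, 0, 3, 6 and 2 had at least 10 UMIs of 20 myeloid genes or of 8 vessel and stroma genes. Those cells held all 40 and 34 UMIs of Clec4e in DMSO 1 and DMSO 2, 29 of 30 and 24 of 24 of Nlrp3, 20 of 20 and 17 of 18 of Trem1, 161 of 164 and 188 of 189 of G0s2, and 66 of 70 and 24 of 56 of Ptgs2. They held 1 of 173 and 0 of 93 UMIs of Irf4 and 3 of 63 and 0 of 23 of Rgs16. Summed neutrophil markers stood at 13.5, 11.8, 341 and 2217 CPM in type 17 cells, and summed macrophage markers at 133, 125, 395 and 275. With such cells left out, 34 of the 69 genes were called, among them Irf4 at -2.64, Rbpj at -1.58, Il17f (adjusted p = 0.043, edgeR) and Nfkbia at -0.95, while Clec4e, Nlrp3, Trem1, G0s2 and Ptgs2 were too low to be tested. The other genes of the 10 largest decreases were Cd80 and Alox5ap, each with 0 UMIs under BPTES, and Tgm2 at -5.40 (SE 0.80, adjusted p = 0.0031), and these 3 could not be tested without those cells either.

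Some heat shock genes and a growth factor receptor gene were among the genes called higher under BPTES. No list of heat shock genes was tested, and those described here were taken from the called genes. Dnaja1, a co-chaperone, stood at 609, 894, 285 and 311 CPM (1.32, SE 0.17, adjusted p = 0.0024), Hspa8, the constitutive HSP70, at 1099.5, 1209, 642 and 758 (0.71, SE 0.12, adjusted p = 0.0092), and Hspa1b, the inducible one, at 292, 249, 121 and 124 (1.14, SE 0.18, adjusted p = 0.0049). Hspa1b has a near-identical copy, Hspa1a, so its value is uncertain. Hspa8 and Hspa1b were the 2 called of 17 tested immediate early and dissociation genes, and 15 were not called, beside 0.303% of all genes called higher. Igf1r, the receptor for insulin-like growth factor 1, which was also chosen after its values were seen, stood at 912, 964, 498 and 508 (0.89, SE 0.12, adjusted p = 0.0013), and the polarity gene Pard3 at 423, 527, 169 and 216 (1.30, SE 0.18, adjusted p = 0.0013). Of the 10 largest increases, the others were Igha, Jchain, Igkc, Rnls (2.28), Enpp4 (1.73), Cxcr3 (1.44), Hs3st3b1 (1.39) and Tsc22d3 (1.28). None of the genes in this paragraph passed without DMSO 1 or without DMSO 2, apart from Igkc and Igha.

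Immunoglobulin RNA was higher under BPTES in γδ T cells, and its values were higher in the CD4, CD8 and NK gates too. Igkc stood at 364, 409, 72.5 and 65.1 CPM in type 17 cells (2.47, SE 0.19, adjusted p = 3.2e-06), Igha at 123, 181, 14.8 and 5.79 (3.72, SE 0.36, adjusted p = 0.00016) and Jchain at 27, 49.4, 6.11 and 2.89 (2.90, SE 0.57, adjusted p = 0.028). Igkc stood at 524, 541, 94.2 and 93.7 in CD4 T cells, 364, 457, 95.1 and 102 in CD8 T cells and 333, 458, 101 and 64.8 in NK cells, with both BPTES values above both DMSO values in each. NK cells were not tested, and in CD8 T cells 0 of 11576 genes passed the threshold as higher under BPTES. The 8 summed B and plasma cell markers stood at 649, 748, 192 and 127 in type 17 γδ T cells and 954, 981, 231 and 288 in CD4 T cells, with Ms4a1 at 0 in every γδ library. The part of free RNA in these values was not tested.

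Of the inhibited pathway, none of 12 tested glutamine genes passed (median -0.17), where 0.910% of all genes did, so a count of 0 says nothing particular about the pathway. Slc1a5 had the values 138, 103, 184 and 184 (-0.60, SE 0.20, adjusted p = 0.256). None of 8 amino acid stress genes passed (median -0.09). None of 14 tested receptor signalling genes passed.

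Whether the effect of BPTES in γδ T cells differs from that in other T cells was tested directly, and no gene passed. On simulated data for γδ against CD4 T cells this test missed most genes changed 2-fold, so the absence of calls does not show equal effects. Over all γδ T cells the interaction gave 0 of 11881 genes against CD4 T cells (0%, 805 with an unadjusted p under 0.05, lowest adjusted p 0.201) and 0 against CD8 T cells (0%, 887 and 0.196). Over type 17 cells it gave 0 of 11891 against both (0%, 859 and 870 with an unadjusted p under 0.05). No other tool was run on the interaction. For Irf4 the difference in effect was -2.07 (adjusted p = 0.577) against CD4 and -1.95 (adjusted p = 0.623) against CD8 T cells, for Nfkbia -0.63 (adjusted p = 0.414) and -0.94 (adjusted p = 0.21), and for Rbpj -1.67 (adjusted p = 0.218) and -1.21 (adjusted p = 0.335). Il17a gave -1.99 (adjusted p = 0.614) and -2.51 (adjusted p = 0.669). Between BPTES and DMSO 29 of 10788 genes passed in CD4 T cells (0.269%; 0.102% higher and 0.167% lower) and 1 of 11576 in CD8 T cells (0.00864%). There, Irf4 differed by -0.53 (SE 0.22, adjusted p = 0.466) and -0.56 (SE 0.44, adjusted p = 0.795) and Dnaja1 by 0.92 (SE 0.30, adjusted p = 0.451) and 0.95 (SE 0.22, adjusted p = 0.602), in the same direction as in type 17 γδ T cells, and Rbpj by 0.08 (SE 0.11, adjusted p = 0.834) and -0.35 (SE 0.27, adjusted p = 0.794). Without BPTES 1 the interaction over all γδ T cells called 146 genes against CD4 and 321 against CD8 T cells, and that over type 17 cells 10 and 19. Without DMSO 1 the latter called 2 and 7.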

How the data were processed

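Single-cell 3' RNA libraries (GEM-X v4) of kidney, 4 in all, were analysed. The authors deposited unnormalized UMI counts for each gene in each barcode, made with Cell Ranger 8.0.1 on mm10 per the submitters' processing notes, and 31054 features are listed. Counting options, the annotation and any doublet removal are not given in the sources used here, and a 3' count reports the end of a transcript, so V segments are seen only in part.

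Cells were chosen with the limits given at the opening of the report. Comparison gates were CD4 (Cd4 at least 1), CD8 (Cd8b1 at least 1), NK (Ncr1 and Klrb1c at least 1, CD3 0) and B cells (Cd79a at least 2, Ms4a1 at least 1, CD3 0). The members, gene lists (26 lists, 310 of 323 symbols found), gates and subsets were chosen with earlier results of these data known. Counts were summed per library and gate and tested with edgeR 4.0.16 (R 4.3.3, quasi-likelihood test, robust, TMM, filterByExpr), with Benjamini-Hochberg adjustment over all tested genes, and adjusted p-values are from edgeR unless another tool is named. γδ, CD4 and CD8 sums shared a fit with library as block, 16 gate genes left out. Shares were tested by exact permutation over libraries, and single-cell shares were thinned to 2000 UMIs per cell, without shallower cells. SEs were derived from the F statistic. Levels are CPM of a sum without TMM scaling, and differences are on the log2 scale with it. A gene at 0 in a group was set against a floor of 3 counts.

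Named genes are list genes past the low-count filter, the 15 highest and 10 lowest by mean difference from CD4 and CD8 T cells among genes past both thresholds (mean log2 CPM at least 5, no overlap), and the 10 largest rises and falls called under treatment. Nfkbia, Nfkb1, Relb, Traf1, Rbpj and Igf1r were named outside this rule, after their values were seen. Doublets were not removed in the values reported. Alternatives were DESeq2 1.42.0, RLE scaling, no low-count filter, a 25% mitochondrial limit, Trdc at least 3, Scrublet calls removed (scanpy 1.11.5, 30 components, 0.4% per 1000 barcodes), cells with NK or ILC2 markers left out, a replicate block, and each library left out. Cells with markers of other types left out, the type 17 subset and the interaction settings were added after seeing the data. The scripts were tested on simulated data. There, more of the calls between treatments were false than the threshold of 0.05 allows, over all γδ T cells and in type 17 cells. The tdTomato feature held 0 UMIs and was not used. Some genes are not reported here.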

Additional observations from a re-analysis of the deposited data

How the results depend on the processing

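The γδ share of T cells differed by -2.62 to 0.340 percentage points with each library left out, and was 0.340 without DMSO 1. The same ranges were -4.42 to -1.31 for type 17 cells, 0.105 to 3.35 for type 1 cells, -46.2 to -2.86 for cells with type 17 transcripts (-24.5 with all libraries), 4.25 to 44.0 for those with type 1 transcripts (24.1) and -47.5 to -29.6 for those with Il17a (-38.5). With 2 libraries per group no share could pass the test, so these ranges give sizes only. Of the shares listed here, only that of all γδ T cells changed sign. The difference in type 1 cells was 0.105 without BPTES 2, in place of 1.73. Thinning each cell to 2000 UMIs before summing left 851 genes called against CD4 and 914 against CD8 T cells in place of 2233 and 2318, from fewer UMIs. Leaving out a library gave 1266 to 2492 and 1278 to 2609 calls. Of 820 values of 75 named genes under 11 alternatives that kept every library, 798 against CD4 and 792 against CD8 T cells kept their direction and their side of the threshold. Ccl5 against CD4 T cells (0.10) was -1.70 without cells with NK or ILC2 markers, -3.81 with type 17 cells only, and -1.07 to 0.70 with each library left out (-1.07 without BPTES 2). Klrb1c was -7.24 against CD4 and -8.21 against CD8 T cells without cells with those markers, of which it is one, and -0.16 and -1.22 with type 17 cells only.

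For treatment over all γδ T cells, 4 genes were called as reported, 307 without a low-count filter, 20 by DESeq2, 8 without cells with NK or ILC2 markers, and 0 to 883 with each library left out. Within type 17 cells 69 genes became 248 without the filter, 31 by DESeq2, 25 without Scrublet calls, 35 without cells with NK or ILC2 markers, 34 without cells with markers of other types, and 13 to 367 with each library left out. Of 346 values of 37 genes there, 295 kept direction and side. The interaction called 0 genes with RLE scaling. Over all γδ T cells it called 0 to 146 genes against CD4 and 0 to 321 against CD8 T cells with each library left out, and 1 and 2 without cells with markers of other types. Over type 17 cells it called 1 to 10 and 1 to 19, and 3 and 2. The difference in effect of Igkc against CD4 T cells (-0.08) was 0.027 without DMSO 1 and 0.38 without cells with markers of other types. The cause of these changes was not tested.

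The labels give both treatments replicate numbers 1 and 2 and say nothing of a pairing. With the replicate block 24 genes were called over all γδ T cells and 97 in type 17 cells. Deviations of same-numbered libraries correlated at -0.037 over 8233 genes and, in type 17 cells, at -0.14 over 7580 genes, across genes that are not independent. A block with the numbers crossed, chosen after seeing the data, called 251 genes in type 17 cells.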
